A study of Mus musculus with 24 samples.

Results

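The genes described here are 9 that are used as marks of the germinal centre B cell: Bcl6, S1pr2, Gcsam, Rgs13, Mef2b, Mybl1, Il21r, Fas and Pou2af1. They were taken by symbol from the 55536 genes of the deposited read-count table, by a rule that uses no measured value but was written with earlier results of these data known, and were set against the follicle markers Cr2 and Ms4a1. All 9 were found in the table, and 7 of them passed the filter on low counts, while Gcsam and Mef2b did not. RNA was sequenced from the distal small intestine (ileum) of 24 C57BL/6N mice, 1 library per animal, in 4 groups of 6 animals with 3 males and 3 females each. All mice entered the study at 4 to 5 weeks of age and stayed on 1 diet throughout. CD mice received the control diet (10% of energy from fat) without metformin, and CDmetf mice received the same diet with metformin. HFD mice received the high-fat diet (60% of energy from fat), which is used to induce obesity and insulin resistance, without metformin, and HFDmetf mice received it with metformin. Metformin, a glucose-lowering drug, was added to the drinking water once the diet had been fed for 20 weeks, at 50 mg per kg of body mass a day and for 10 weeks. Mice were caged with others of the same sex, and each library came from a different cage, so that p-values measure the spread between animals of separate cages. Libraries are named by group, sex and replicate number, as in HFD F1.

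A germinal centre is a transient structure inside a B-cell follicle in which activated B cells divide, mutate their antibody genes and are selected with the help of follicular T cells. In the ileum, follicles lie in Peyer's patches and in small isolated lymphoid follicles, and germinal centres are common there because the gut flora stimulates B cells continuously. Bcl6 encodes the transcriptional repressor that holds a B cell in the germinal centre state, Mef2b encodes a transcription factor that drives Bcl6, and Pou2af1 encodes OCA-B, the B-cell coactivator that joins POU factors on the octamer of antibody gene promoters. S1pr2 encodes a sphingosine phosphate receptor that keeps these cells inside the follicle, Gcsam an adaptor that limits their movement, and Rgs13 a regulator of chemokine receptor signalling. Il21r encodes the receptor for interleukin 21 from follicular helper T cells, Fas the death receptor, and Mybl1 a MYB family transcription factor. Cr2 (complement receptor CD21) is carried by mature B cells and by follicular dendritic cells, and Ms4a1 (CD20) by B cells. Most of these genes are not limited to B cells, and bulk RNA from a piece of intestine holds every cell type of the wall.

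To show the start regions of the genes that the results turn on, the 250 bases before the RefSeq start (build GRCm38.p6) are given 5′ to 3′ on the strand of the gene for Il21r and Pou2af1, which followed the follicle markers, for Bcl6, which did not pass that test, and for Mef2b, the member with the fewest reads. Capitals mark the octamer ATGCAAAT or the paired half-site TTCNNNGAA, the letters read by BCL6 and by STAT factors.
Il21r, chr7:125603179-125603428, plus strand: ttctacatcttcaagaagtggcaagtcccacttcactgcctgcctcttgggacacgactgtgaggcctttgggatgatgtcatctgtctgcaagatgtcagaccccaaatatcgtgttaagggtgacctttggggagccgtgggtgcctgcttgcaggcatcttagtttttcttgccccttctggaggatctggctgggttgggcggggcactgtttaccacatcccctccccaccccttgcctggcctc
Pou2af1, chr9:51213440-51213689, plus strand: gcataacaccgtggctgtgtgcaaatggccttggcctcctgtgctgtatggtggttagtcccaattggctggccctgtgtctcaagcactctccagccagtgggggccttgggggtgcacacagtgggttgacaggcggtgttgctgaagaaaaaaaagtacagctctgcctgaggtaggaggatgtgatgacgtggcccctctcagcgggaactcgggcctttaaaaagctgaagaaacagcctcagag
Bcl6, chr16:23988853-23989102, minus strand: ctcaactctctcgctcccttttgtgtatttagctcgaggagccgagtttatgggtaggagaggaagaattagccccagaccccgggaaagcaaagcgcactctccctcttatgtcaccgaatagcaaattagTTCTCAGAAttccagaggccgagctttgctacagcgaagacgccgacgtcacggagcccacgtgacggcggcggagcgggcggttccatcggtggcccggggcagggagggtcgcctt
Mef2b, chr8:70152511-70152760, plus strand: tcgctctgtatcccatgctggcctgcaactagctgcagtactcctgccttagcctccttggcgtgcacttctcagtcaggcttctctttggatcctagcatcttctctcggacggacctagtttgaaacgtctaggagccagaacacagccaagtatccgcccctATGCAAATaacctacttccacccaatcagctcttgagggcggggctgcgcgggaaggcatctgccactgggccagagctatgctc
The search covered both strands of windows that run from 250 bases before to 50 bases after the start. In RefSeq, 8 of the 9 members had such a window (all but Mybl1). The octamer was found in the Mef2b window, where it began 85 bases before the start, and in 1.74% of all 32851 windows. The half-site pair, which reads the same on both strands, was found in both windows of Bcl6 and in that of Fas, and in 8.30% of all windows. The MYB core CAACNG was found in the windows of Rgs13, S1pr2 and Cr2, with 2 overlapping matches on opposite strands in Rgs13, and in 35.02% of all windows. The MEF2 site, searched by name, was found in none of the members' windows and in 3.19% of all windows. The Il21r, Pou2af1 and Gcsam windows held none of the 4 patterns. These matches describe the letters of the windows, and no binding was measured.

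The depth differed widely between libraries, from 1829690 to 40606442 reads on genes with a median of 3467307. In CD M3 the 10 most counted genes took 85.4% of the reads on genes. Sex-linked genes went against the label in 2 libraries: HFD M2, labelled male, held 3355 Xist reads with none on 4 Y-linked genes, and HFD F2, labelled female, held 1 Xist read and reads on each of those 4 genes. Values are read counts per 1000000 reads on genes (CPM) scaled by TMM, which corrects for genes that take a large share of a library. The epithelial list (Krt8, Vil1, Krt20, Epcam and Cdh1) summed to between 4103 and 11050 CPM. The ileal bile acid binding gene Fabp6 ranged from 0.841 CPM in HFD M3 to 2618 CPM in CDmetf F2.

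The members differed in level per kilobase of exon, with wide spread between libraries. Rgs13 had the highest mean over all libraries, at 6.47 CPM per kb (SD 7.09, n = 24), then Pou2af1 at 5.53, Fas at 4.00, Bcl6 at 3.09 and Il21r at 1.00 CPM per kb. S1pr2 followed at 0.475, Mybl1 at 0.460, Gcsam at 0.192 and Mef2b at 0.169 CPM per kb. Of neighbours in this order, Bcl6 exceeded Il21r in 22 of 24 libraries, Fas exceeded Bcl6 in 20 and Mybl1 exceeded Gcsam in 19. Pou2af1 exceeded Fas in 14 of 24 libraries. Rgs13 exceeded Pou2af1 in 13 of 24 libraries, Il21r exceeded S1pr2 in 12, S1pr2 exceeded Mybl1 in 11 and Gcsam exceeded Mef2b in 12. Only between Bcl6 and Il21r was the mean difference between neighbours (2.09 CPM per kb) larger than the SD of the difference between libraries (1.33). The order of the other neighbours varied more from library to library, and the order of the means was not tested. The total reads over all libraries ran from 82 on Mef2b and 215 on Gcsam to 6008 on Bcl6.

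**Figure D1:**
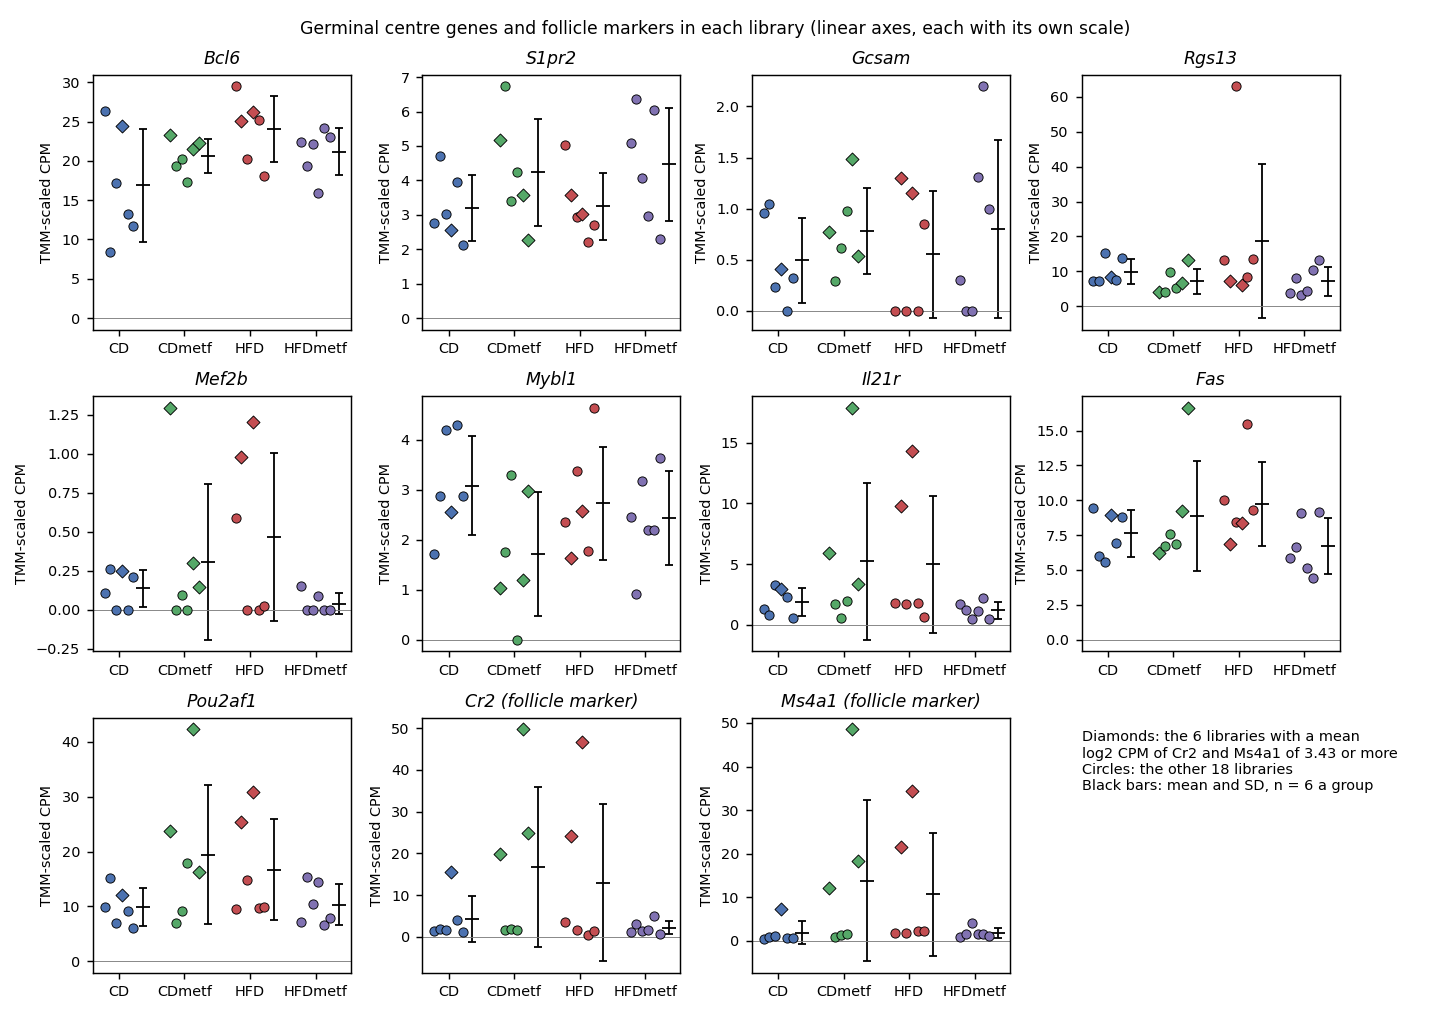
TMM-scaled CPM (vertical axes, linear, each with its own scale) of the 9 germinal centre genes and the follicle markers Cr2 and Ms4a1, with 1 symbol per library by group and black bars for the mean and SD (n = 6). Diamonds mark the 6 libraries with a follicle marker level of 3.43 or more: Il21r, like Cr2 and Ms4a1, reached its highest values there, while the highest Rgs13 value (63.1 CPM, HFD M3) was in another library.

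The follicle markers were distributed unevenly over the animals. The follicle marker level, the mean log2 CPM of Cr2 and Ms4a1, lay between -0.07 and 1.56 in 18 libraries and between 3.43 and 5.62 in the other 6. These 6 were CD F1 (3.43), CDmetf M1 (3.97), CDmetf F3 (4.42), the library labelled HFD M2 (4.52), HFD F1 (5.33) and CDmetf F2 (5.62). They came from 3 groups (1 CD, 3 CDmetf and 2 HFD), and 0 of the 6 HFDmetf libraries were among them. In CPM, Cr2 ranged from 15.4 to 49.8 in the 6 libraries and from 0.443 to 4.95 in the 18, and Ms4a1 from 7.39 to 48.6 and from 0.532 to 4.08. Fewer follicle cells in a piece of tissue and less RNA per cell cannot be told apart in bulk RNA.

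To ask which members moved with the follicle markers, a slope on the follicle marker level was fitted for every gene in a model that also held group, sex and replicate number. Of 13503 genes, 171 (1.27%) had a positive slope by the quasi-likelihood test of edgeR at FDR < 0.05. Of the 7 members tested, 2 did: Il21r and Pou2af1. The remaining 5 were not called, and the genes are described below one by one.

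Il21r (ENSMUSG00000030745, chr7:125603429-125633570) had the steeper slope. It rose by 0.64 on the log2 scale per unit of the follicle marker level (SE 0.0938; FDR = 0.000338), a slope above those of 99.8% of genes. Il21r was 17.9 CPM in CDmetf F2, 14.3 in HFD F1, 9.79 in the library labelled HFD M2, 5.96 in CDmetf M1, 3.39 in CDmetf F3 and 2.96 in CD F1. In the 18 libraries with low follicle markers it was between 0.453 and 3.26 CPM. The order of Il21r within the 6 libraries was nearly that of the markers, and the lowest of the 6 overlapped the highest of the 18, CD M3. With Cr2 alone or Ms4a1 alone as the measure, and with each library left out in turn, Il21r stayed called.

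Pou2af1 (ENSMUSG00000032053, chr9:51213708-51240080) rose with the markers on a higher base. Its slope was 0.27 (SE 0.0595; FDR = 0.0163), above those of 98.6% of genes. Pou2af1 was 42.3 CPM in CDmetf F2, 30.9 in HFD F1, 25.5 in the library labelled HFD M2, 23.8 in CDmetf M1, 16.3 in CDmetf F3 and 12.2 in CD F1. The other 18 libraries lay between 5.96 and 17.9 CPM, so that 4 of the 6 were above all of the 18. The call rested on several libraries. It was lost (FDR 0.0552 to 0.0947) without CDmetf M2, CDmetf F2, HFD F1 or the library labelled HFD F2, lost without both libraries labelled HFD M2 and HFD F2 (FDR = 0.120), and lost with Cr2 alone as the measure (FDR = 0.0565), with slopes of 0.24 to 0.27.

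The remaining tested members had smaller slopes that were not called. Bcl6 had a slope of 0.06 (SE 0.0456; FDR = 0.842), above those of 87.3% of genes. S1pr2 had a slope of -0.03 (SE 0.0499; FDR = 0.968) and Rgs13 of -0.02 (SE 0.0985; FDR = 0.998). Mybl1 had a slope of 0.02 (SE 0.0889; FDR = 0.997) and Fas of 0.01 (SE 0.0568; FDR = 0.997). The median slope over all genes was -0.01. For Bcl6 the values overlapped widely, from 21.5 to 26.2 CPM in the 6 libraries and from 8.36 to 29.5 CPM in the 18.

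Because the follicle marker level fell into separate sets of libraries, no correlation over all 24 was computed; it was taken within each set for the 9 members, 18 relations in all. Within the 6 libraries, Il21r had r = 0.88 (exact permutation p = 0.0250) and rho = 0.94 (exact permutation p = 0.0167), and Pou2af1 had r = 0.88 (exact permutation p = 0.0222) and rho = 0.94 (exact permutation p = 0.0167). Gcsam had r = 0.82 (exact permutation p = 0.05) and rho = 0.89 (exact permutation p = 0.0333) in the same libraries. Its values rested on 3 reads in CDmetf M1, 4 in the library labelled HFD M2, 5 in CD F1 and 5 in CDmetf F2, at or near the counting limit. Without the 2 libraries farthest from the median level, r was 0.69, 0.55 and 0.49 for the 3 genes, now over 4 libraries. Within the 18 libraries, rho lay between -0.34 and 0.44 over the members. S1pr2 had r = 0.53 (permutation p = 0.0262) and rho = 0.44 (permutation p = 0.066) in these 18, and r = 0.41 without the 2 farthest from their median level. There Il21r had r = 0.15 (permutation p = 0.536) and Pou2af1 had r = 0.25 (permutation p = 0.311). No relation of these 2 genes with the markers was thus seen among the libraries low in them. These p-values are not adjusted for the 18 relations. By replicate number (8 libraries each), rho with the marker level was 0.81, 0.71 and 0.31 for Il21r and 0.67, 0.45 and 0.90 for Pou2af1. Each replicate number held libraries both high and low in the markers, so that these values also span the 2 sets.

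**Figure D2:**
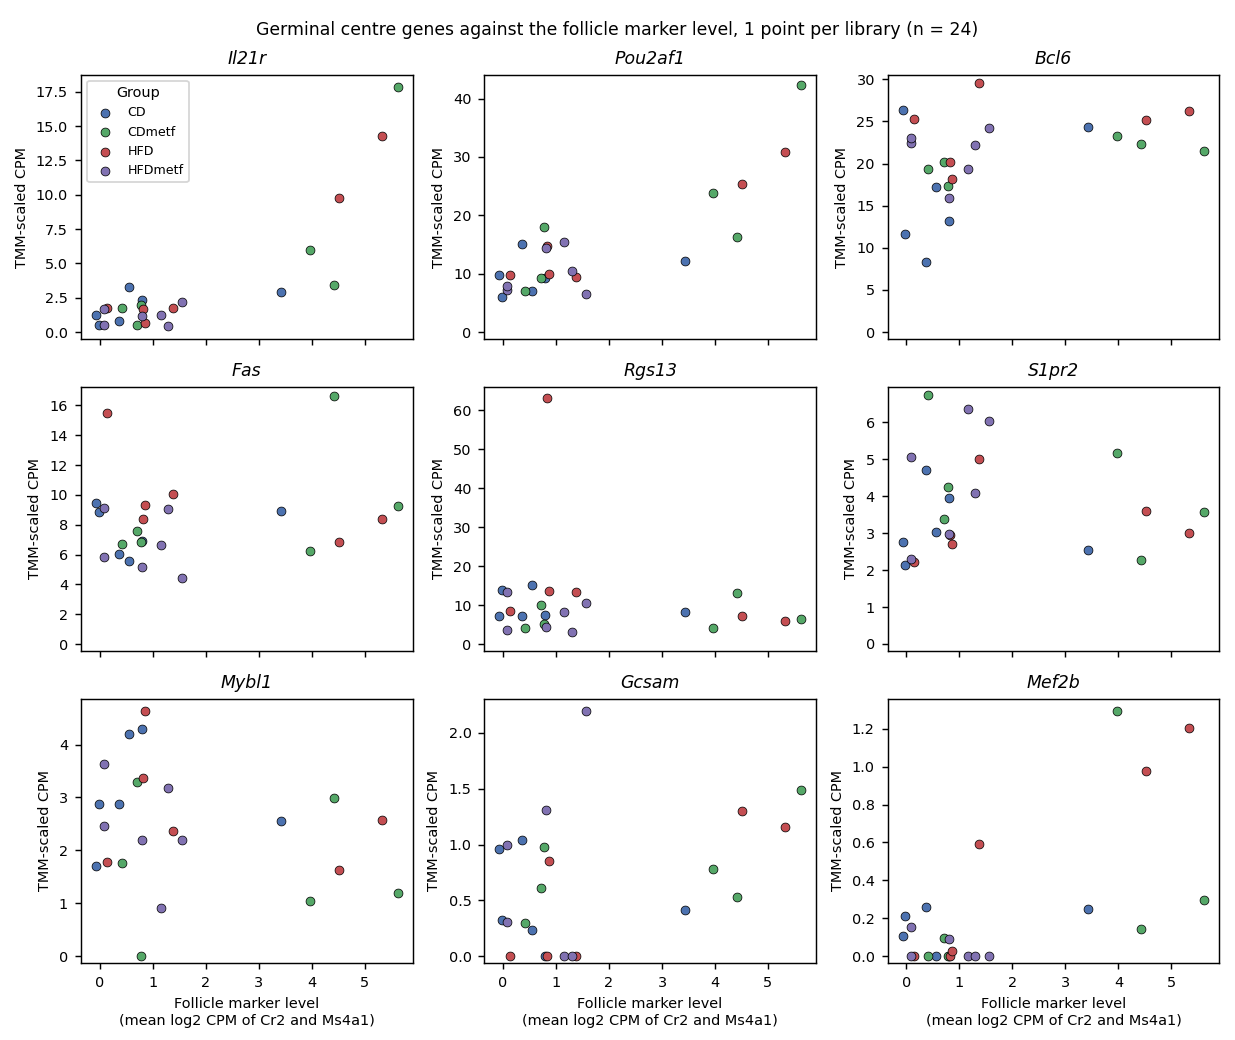
TMM-scaled CPM of each of the 9 germinal centre genes (vertical axes) against the follicle marker level, the mean log2 CPM of Cr2 and Ms4a1 (horizontal axis), with 1 point per library coloured by group. Il21r and Pou2af1 rose with the marker level, reaching 17.9 and 42.3 CPM in CDmetf F2, while Bcl6 stayed between 21.5 and 26.2 CPM in the 6 libraries on the right. Mef2b ranged from 0 to 0.590 CPM in the 18 on the left and overlapped there with the 6 on the right. These ranged from 0.145 to 1.30 CPM, the highest from 5 reads in CDmetf M1.

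Gcsam and Mef2b were at the limit of detection. Gcsam (ENSMUSG00000022659) had 215 reads in all and was at 0 in 6 libraries: 1 CD, 3 HFD and 2 HFDmetf. It was between 0.411 and 1.49 CPM in the 6 libraries high in follicle markers and between 0 and 2.20 CPM in the others, and the highest value (HFDmetf F2) rested on 4 reads. Of the 82 reads on Mef2b (ENSMUSG00000079033), 50 were in HFD F1, the deepest library, where they gave 1.20 CPM. The next deepest libraries held 6 reads (CDmetf F3), 1 read (HFD F3) and 0 reads (HFDmetf F3). In CDmetf M1, 5 reads gave 1.30 CPM, and in the library labelled HFD M2, 3 reads gave 0.979 CPM, counts at or near the counting limit. Mef2b was at 0 in 10 libraries, a count that allows up to 3 reads by counting error alone. The exons of Mef2b overlap those of Borcs8 on the same strand, so that the counts of both genes are uncertain there.

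**Figure D3:**
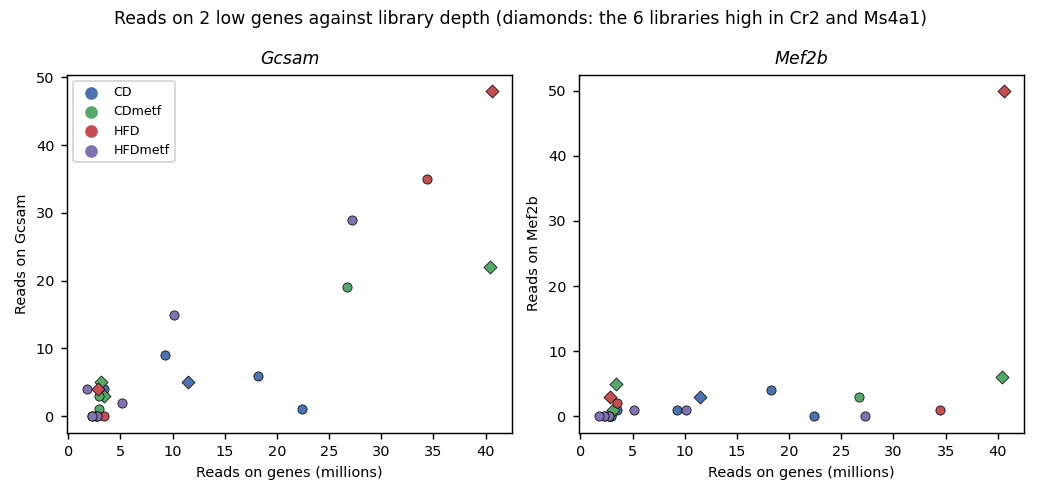
Reads on Gcsam and Mef2b (vertical axes) against reads on genes (horizontal axis), with 1 symbol per library coloured by group and diamonds for the 6 libraries high in Cr2 and Ms4a1. HFD F1 stands apart with 50 reads on Mef2b, while Gcsam was also read in deep libraries low in the markers, such as HFD F3 with 35 reads.

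The diet and metformin contrasts called no member. By edgeR's quasi-likelihood test 0 of 13505 genes passed FDR < 0.05 in the 2 diet contrasts (HFD vs. CD and HFDmetf vs. CDmetf), the 2 metformin contrasts (HFDmetf vs. HFD and CDmetf vs. CD) or the diet by metformin interaction, a share of 0% in each. At an unadjusted p under 0.05, 2 of the 7 tested members passed in HFD vs. CD against 4.75% of all genes, 2 in HFDmetf vs. CDmetf against 7.55%, 3 in HFDmetf vs. HFD against 6.87%, 2 in CDmetf vs. CD against 5.00% and 2 in the interaction against 5.76%. With limma-voom and sample quality weights, which give less weight to libraries that deviate more, 3 members were called in HFD vs. CD (Bcl6, Il21r and Pou2af1) against 10.6% of genes, 2 in HFDmetf vs. CDmetf (Il21r and Pou2af1) against 6.09%, 3 in HFDmetf vs. HFD (Il21r, Fas and Pou2af1) against 18%, 0 in CDmetf vs. CD against 0.237% and 3 in the interaction (Bcl6, Il21r and Pou2af1) against 6.72%. DESeq2 called 0 members and between 0 and 12 genes. Contrasts that share a group share its 6 libraries and are not independent of each other.

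Il21r had the largest logFC of the 7 tested members in each of the 5 comparisons. It had a minimum of 0.532, a median of 1.79 and a maximum of 3.26 CPM in CD, and 0.549, 2.68 and 17.9 in CDmetf. In HFD these values were 0.684, 1.77 and 14.3 CPM, and in HFDmetf 0.453, 1.17 and 2.20 CPM. The 4 groups overlapped, with similar lowest values and with the high values in the libraries high in follicle markers. The logFC was -2.05 (SE 0.729; FDR = 0.608) in HFDmetf vs. CDmetf, -2.04 (SE 0.735; FDR = 0.620) in HFDmetf vs. HFD and -3.30 (SE 1.00; FDR = 0.754) in the interaction. It was 1.25 (SE 0.698; FDR = 0.995) in HFD vs. CD and 1.26 (SE 0.685; FDR = 0.963) in CDmetf vs. CD. Without HFD F1 the logFC in HFD vs. CD was 0.39, and without CDmetf F2 that in CDmetf vs. CD was 0.74.

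Pou2af1 had the same directions with smaller sizes. Its minimum, median and maximum were 5.96, 9.52 and 15.2 CPM in CD, 7.03, 17.1 and 42.3 in CDmetf, 9.44, 12.3 and 30.9 in HFD and 6.60, 9.14 and 15.4 in HFDmetf. All 4 groups overlapped, and the values above 17.9 CPM were in CDmetf and HFD. The logFC was 0.79 (SE 0.353; FDR = 0.995) in HFD vs. CD, 0.95 (SE 0.351; FDR = 0.963) in CDmetf vs. CD, -0.84 (SE 0.355; FDR = 0.630) in HFDmetf vs. CDmetf, -0.68 (SE 0.357; FDR = 0.620) in HFDmetf vs. HFD and -1.63 (SE 0.501; FDR = 0.754) in the interaction. The follicle markers themselves had the largest logFC of the genes plotted, -4.98 for Cr2 (SE 1.30; FDR = 0.627) and -5.35 for Ms4a1 (SE 1.34; FDR = 0.627) in the interaction.

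With the follicle marker level as a further term, the logFC of Il21r was -0.10 (SE 0.444) in HFD vs. CD, -0.16 (SE 0.493) in HFDmetf vs. CDmetf, -0.37 (SE 0.480) in HFDmetf vs. HFD, -0.31 (SE 0.461) in CDmetf vs. CD and -0.06 (SE 0.755) in the interaction. For Pou2af1 the interaction was then -0.50 (SE 0.421). The size of both genes' differences was smaller in this fit, and 0 members were called in it. Since 0 of the 6 HFDmetf libraries were high in the markers, the fit cannot compare HFDmetf with other groups at a high marker level. Whether follicle content accounts for the differences was not tested. For Bcl6 the term changed HFD vs. CD from 0.52 to 0.44.

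Bcl6 (ENSMUSG00000022508, chr16:23965052-23988852) had its lowest values and its lowest median in CD, but edgeR called it in no contrast. Its minimum, median and maximum were 8.36, 15.2 and 26.4 CPM in CD, 17.3, 20.8 and 23.3 in CDmetf, 18.1, 25.2 and 29.5 in HFD and 15.95, 22.3 and 24.2 in HFDmetf. All 6 HFD libraries were above the CD median, yet the groups overlapped, since CD M1 and CD F1 lay within the range of the HFD libraries. The logFC in HFD vs. CD was 0.52 (SE 0.200; unadjusted p = 0.0163 and FDR = 0.995 by edgeR), and in the other contrasts it lay between -0.50 and 0.33. Bcl6 exons overlap those of Gm37419 on the opposite strand, a gene with 36 reads in all libraries.

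Rgs13 (ENSMUSG00000051079, chr1:144138654-144177372) was set apart by 1 library. It was 63.1 CPM in HFD M3, from 150 reads, and between 6.02 and 13.7 CPM in the other HFD libraries. Its minimum, median and maximum were 7.24, 7.94 and 15.1 CPM in CD, 4.10, 5.89 and 13.1 in CDmetf and 3.17, 6.23 and 13.3 in HFDmetf, so that the groups overlapped. The logFC in HFDmetf vs. HFD was -1.08 (SE 0.388; FDR = 0.620), and -0.53 without HFD M3. In HFD vs. CD it was 0.63 (SE 0.370; FDR = 0.995), and 0.08 without HFD M3. In HFD M3 the tuft cell genes Dclk1 (98.0 CPM) and Trpm5 (56.4 CPM), named after their values were seen, also had their highest values of the 24 libraries, and Cr2 and Ms4a1 were at 1.68 CPM each from 4 reads. The ileal gene Fabp6 had its lowest value of the 24 libraries there (0.841 CPM). The part of tuft cells, or of the piece of tissue taken, in the Rgs13 value was not tested.

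Fas (ENSMUSG00000024778, chr19:34290666-34327772) was read in every library, from 4.40 to 16.7 CPM. Its medians were 7.88 CPM in CD, 7.22 in CDmetf, 8.87 in HFD and 6.25 in HFDmetf, and all groups overlapped. The highest values, CDmetf F3 (16.7 CPM) and the library labelled HFD F2 (15.5 CPM), were in libraries on opposite sides of the follicle marker gap. The logFC in HFDmetf vs. HFD was -0.52 (SE 0.243; FDR = 0.620).

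S1pr2 and Mybl1 were low and overlapped in all groups. S1pr2 (ENSMUSG00000043895, chr9:20962361-20976781) ranged from 2.13 to 6.74 CPM, with medians of 2.90 CPM in CD, 3.91 in CDmetf, 2.98 in HFD and 4.58 in HFDmetf, and its logFC was 0.38 (SE 0.204; FDR = 0.963) in CDmetf vs. CD. Mybl1 (ENSMUSG00000025912, chr1:9667415-9700209) ranged from 0 in CDmetf F1 to 4.64 CPM in HFD F3. Its medians were 2.87 CPM in CD, 1.48 in CDmetf, 2.47 in HFD and 2.33 in HFDmetf, and its logFC was -0.78 (SE 0.351; FDR = 0.963) in CDmetf vs. CD.

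**Figure D4:**
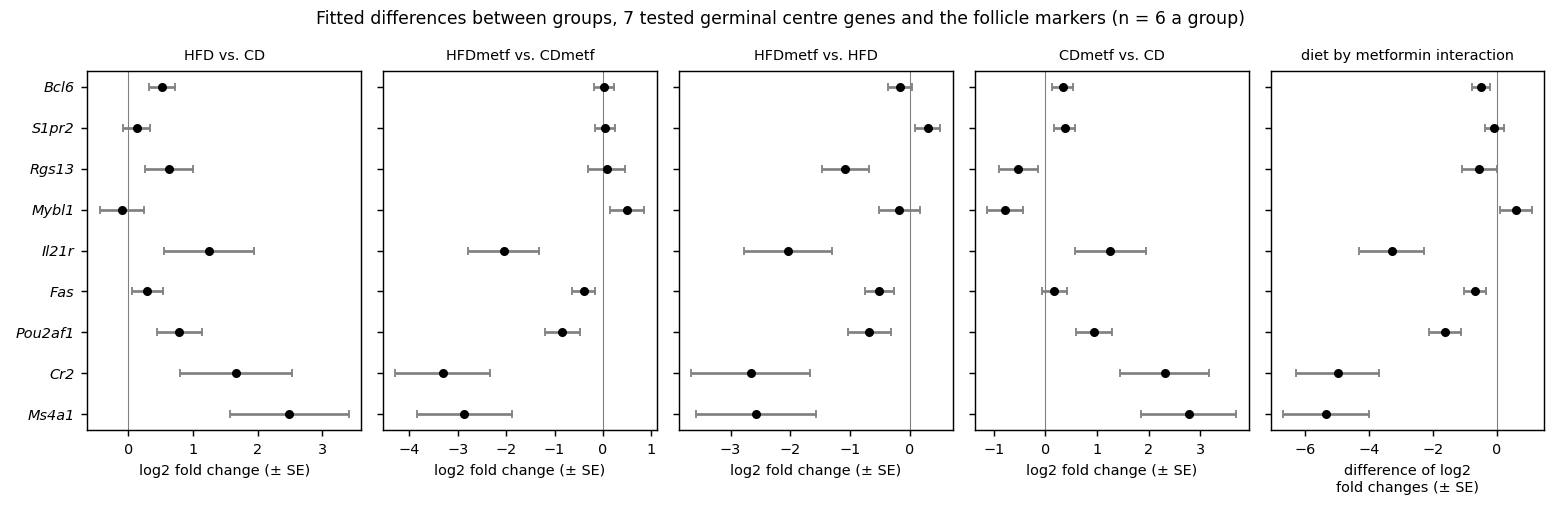
Fitted log2 fold change (horizontal axes, each with its own scale) with its SE for the 7 tested germinal centre genes and the follicle markers in the 4 contrasts, and the difference of log2 fold changes for the diet by metformin interaction. Il21r, Pou2af1, Cr2 and Ms4a1 lie on the same side of 0 in each panel, with Cr2 and Ms4a1 farthest from 0 (-4.98 and -5.35 in the interaction), and no gene shown passed FDR < 0.05.

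No member was called for a difference between males and females. Over all groups, 1 of 13505 genes was called (0.00740%), and among the members S1pr2 had the smallest p, with a male vs. female logFC of 0.47 (SE 0.147; unadjusted p = 0.00395 and FDR = 0.607 by edgeR). In the fit with sex by group (14402 genes), 0% of genes were called for the male against female difference of each of the 4 contrasts. The largest difference among the members was that of Il21r in CDmetf vs. CD, -2.13 for males minus females (SE 1.41). The smallest p was that of Rgs13 in HFDmetf vs. HFD, with -1.92 for males minus females (SE 0.648; unadjusted p = 0.00815 and FDR = 1.00 by edgeR), a value that includes HFD M3. Both fits include the 2 libraries whose labelled sex did not match their reads, and neither was repeated without them. Over all groups only 1 gene was called, although Xist and the 4 Y-linked genes mark the sexes. The lack of calls therefore cannot show that the members were alike in males and females.

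The members also differed in which genes they resembled. Among the 7 tested members, Spearman's rho over the 24 libraries ranged from -0.60 (S1pr2 with Fas) to 0.55 with a median of -0.05, and 11 of 21 pairs were negative. These values are descriptions, since all pairs share the libraries, their depth and their normalization. The genes nearest to Il21r were Pou2f2 (rho 0.85), Sash3 (0.83) and Bank1 (0.83), and those nearest to Pou2af1 were Irf4 (0.85), Cd79b (0.81) and Tnfrsf13b (0.78), which are genes of B cells, plasma cells or leukocytes in general. S1pr2 was nearest to Ecm1 (0.91), Chpf (0.90), C1qc (0.88) and Csf1r (0.85), the last 2 being macrophage genes, and Mybl1 to Mptx1 (0.86). S1pr2 also had a rho of -0.50 with the reads on genes of a library, and the part of depth in its neighbours was not tested. Bcl6 was nearest to Trmt1l and Fam3a (0.71 each), Fas to Fbxo8 and Phospho2 (0.86 each) and Rgs13 to Gm14326 (0.84) and Ang4 (0.82). Genes nearest to single members were looked up after the values were seen. By the mean z-score of the 7 members, the nearest 10 genes were Btla, Btk, Fcmr, Arhgap4, Arhgap15, Slfn2, Cd37, Ifi209, Cd22 and Rasgrp1 (rho 0.72 to 0.84).

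Other genes of the germinal centre reaction were read from a list of 22. Of these, 20 were tested, and 5 had a positive slope on the follicle marker level (Hhex, Cxcr4, Cd83, Bach2 and Spib), against 1.27% of all genes. A negative slope was called for 0 of them, and the median slope was 0.06 against -0.01 over all genes. Spib, a B-cell and epithelial transcription factor, rose by 0.47 (SE 0.0686; FDR = 0.000340) per unit, and Cxcr4, the chemokine receptor of the dark zone, by 0.39 (SE 0.0630; FDR = 0.000900). The genes with the highest CPM of the list, Plxnb2, Gna13, Efnb1 and Irf8, had slopes of 0.06, -0.01, 0.01 and 0.06 and were not called. In the contrasts 0 of the 20 were called, and their median logFC was 0.08 in HFD vs. CD, -0.14 in HFDmetf vs. CDmetf, -0.09 in HFDmetf vs. HFD, 0.09 in CDmetf vs. CD and -0.26 in the interaction. Over all genes these medians lay between -0.02 and 0.03.

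Of 14 general B-cell genes, 13 had a positive slope, from 0.61 for Cd37 to 1.20 for Cxcr5, against 1.27% of all genes. Ebf1 was not called (slope 0.40; FDR = 0.0845). Cr2 and Ms4a1, which make up the marker level, are themselves carried by B cells, so that the count for this list is no independent test. The median slope of the 14 genes was 0.83, and their median logFC ran from -4.22 in the interaction to 2.04 in CDmetf vs. CD with 0 genes called. Of the follicular dendritic cell and follicle stroma list, 5 of 7 tested genes had a positive slope, of the T follicular helper list 2 of 5, of the T-cell list 2 of 3 and of the follicle-associated epithelium list 1 of 3. The share over all genes beside these counts is the same 1.27%. Cxcr5 counts in both the general B-cell and the T follicular helper list, and Spib, the 1 gene called in the follicle-associated epithelium list, also stands in the list of other germinal centre genes. In the lists of plasma cell (7 tested), epithelium (5), ileum (5), proliferation (8), pancreatic acinar (2) and smooth muscle genes (4), 0 had a slope past the threshold and 0 were called in any contrast. The summed CPM of the general B-cell list ranged from 24.8 to 168 in CD, from 40.8 to 882 in CDmetf, from 40.2 to 604 in HFD and from 23.8 to 124 in HFDmetf.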

How the data were processed

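RNA from the distal small intestine of 24 mice was depleted of rRNA and sequenced as paired reads from directional libraries. The authors deposited raw read counts per gene. Per the labels and methods, reads were trimmed with Trimmomatic 0.39, mapped to GRCm38 and counted with STAR 2.5.3a; which annotation release and which strand were counted is not given in the sources used here. The 4 rows that name no gene held 35.5% to 75.7% of each library's reads and were left out, and 0 columns of other samples were present. Groups, sex and replicate numbers came from the labels.

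The members, lists and motifs were chosen with earlier results of these data known. Counts were filtered with filterByExpr by group (13505 genes) and normalized with TMM. edgeR 4.0.16 in R 4.3.3 fitted quasi-likelihood models over the 24 libraries, whose terms were group, sex and replicate number and which left 17 residual degrees of freedom, with Benjamini-Hochberg adjustment over all genes tested (FDR threshold 0.05, tests two-sided). The follicle marker level used log2 CPM with a prior count of 1. Each SE of an edgeR logFC or slope was calculated back from the test, as its absolute value divided by the square root of the F statistic. Sex differences used 8 groups (14 residual degrees of freedom). Alternatives used limma 3.58.1 and DESeq2 1.42.0. The tests were checked on simulated data. Permutation tests were exact or used 100000 resamples, two-sided. Gene symbols were matched for 55450 of 55536 IDs, and exon lengths and positions were taken from GENCODE vM21. With 3 reads or fewer a gene is at the counting limit, and counts carry counting error only within a library. The named genes were the 9 members, Cr2 and Ms4a1, the 4 genes with the highest mean CPM of each list and the 10 genes nearest to the members' mean z-score; other genes were named after their values were seen. Values of 2 other genes are not reported here.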

Additional observations from a re-analysis of the deposited data

Results flagged for a closer look

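A library was set apart where its gap to the nearest of the other 5 in its group, divided by the range of the group, exceeded Dixon's critical value for 6 samples. Of 44 groups of values tested (9 members and 2 follicle markers in 4 groups), 9 held such a library, and chance alone gives about 1 in 20 groups of normally distributed values; the rate for CPM values such as these was not measured.

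Rgs13 was 63.1 CPM in HFD M3, with the next highest HFD library at 13.7 CPM. Mef2b was 1.30 CPM in CDmetf M1, from 5 reads, with the next at 0.298 CPM. Il21r was 17.9 CPM in CDmetf F2, with the next at 5.96 CPM. Fas was 16.7 CPM in CDmetf F3 (next 9.24 CPM) and 15.5 CPM in the library labelled HFD F2 (next 10.0 CPM). In CD F1, Cr2 was 15.4 CPM (next 3.96 CPM) and Ms4a1 was 7.39 CPM (next 1.16 CPM). Ms4a1 was also 48.6 CPM in CDmetf F2 (next 18.2 CPM) and 4.08 CPM in HFDmetf M3, from 9 reads (next 1.65 CPM).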

How the results depend on the processing

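The model as reported called 0 members in every contrast, as did RLE normalization, no filter on low counts, no sex term, plain limma-voom, DESeq2, the follicle marker term, leaving out both libraries labelled HFD M2 and HFD F2, and leaving out each library in turn. The filter by the design matrix, added after seeing the data, also called 0. limma-voom with sample quality weights called 1425 genes and 3 members in HFD vs. CD, 822 and 2 in HFDmetf vs. CDmetf, 2429 and 3 in HFDmetf vs. HFD, 32 and 0 in CDmetf vs. CD and 908 and 3 in the interaction, and DESeq2 called 12, 4, 0, 4 and 4 genes in that order; the cause was not tested. Gcsam and Mef2b had too few reads to pass the filter. Without the filter on low counts, the logFC of Mef2b in HFDmetf vs. HFD was -3.09 (SE 0.979; FDR = 0.888).

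The members with a positive slope on the follicle markers numbered 1 (Il21r) in place of 2 with Cr2 alone and without both libraries labelled HFD M2 and HFD F2, and between 1 and 2 when each library was left out. The genes with a positive slope numbered 121 (without HFD F1) to 190 in those fits.

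The replicate numbers were kept as a term because the study's model held a sequencing block; that the numbers are those blocks is assumed. Same-numbered libraries deviated together in 22 of 36 pairs of the same sex only (correlation over 0.1). For 19 of 24 libraries, the mean correlation with libraries of the other groups was highest at their own replicate number. Without the replicate block, 0 genes and 0 members were called in the contrasts and 203 genes and 2 members had a positive slope; the logFC of Rgs13 in HFDmetf vs. CDmetf turned to -0.052, and the slopes of S1pr2, Mybl1 and Fas to 0.016, -0.093 and -0.0085.

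Of 45 logFC values, 7 changed sign under another setting, and none of these was called under either. Bcl6 in HFDmetf vs. CDmetf was -0.034 without the filter, -0.062 by limma-voom and -0.32 with weights. S1pr2 there was -0.0026 without the filter, -0.0067 with weights and -0.0135 with the follicle marker term, and Rgs13 was -0.0072 by limma-voom. Rgs13 was 0.024 in the interaction with weights. Mybl1 in HFD vs. CD was 0.25 by limma-voom, 0.29 with weights and 0.062 without both libraries labelled HFD M2 and HFD F2. Il21r was -0.10 in HFD vs. CD and -0.31 in CDmetf vs. CD with the follicle marker term. The slope of Rgs13 was 0.021 and that of Fas -0.0045 with Cr2 alone, and that of Mybl1 was -0.0066 with Ms4a1 alone.

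Leaving out each library in turn, values that changed sign ranged as follows. In HFDmetf vs. CDmetf, Bcl6 ranged from -0.059 to 0.14, S1pr2 from -0.045 to 0.12 and Rgs13 from -0.11 to 0.33. S1pr2 ranged from -0.17 to 0.043 in the interaction, Mybl1 from -0.29 to 0.063 in HFD vs. CD and Fas from -0.0498 to 0.32 in CDmetf vs. CD. The slopes ranged from -0.058 to 0.033 for Rgs13, from -0.0565 to 0.053 for Mybl1 and from -0.036 to 0.078 for Fas.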
